A study of Homo sapiens with 4 samples.

Results

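The genes described here are the cyclins, the cyclin-dependent kinases (CDKs), their inhibitors, phosphatases and opposing kinase, the retinoblastoma family of pocket proteins and the E2F transcription factors. They were taken by symbol from a list of 45 genes, all of which were found once each among 60766 features. RNA-seq covered 4 libraries of HCT116, a human cell line established from a colon carcinoma, with 2 libraries in each of 2 groups. One group was labelled control, and the other carried a short hairpin RNA that knocks down ARID1A, which encodes an accessory subunit of SWI/SNF, the ATP-dependent remodeller of nucleosomes. Both groups were grown in RPMI1640 medium with serum, and the labels give no sorting, drug treatment or time. The stated purpose was to relate ARID1A to immune functions. The sources used here do not give the hairpin sequence, the construct of the control cells or whether the lines were clones or pools. Whether replicates came from separate cultures is not stated. The p-values thus set each group difference only against the spread between libraries of a group, and that spread may be technical.

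In the cell cycle, D-type cyclins with CDK4 and CDK6, and then cyclin E with CDK2, phosphorylate the pocket proteins, which releases E2F factors to switch on genes for S phase. Cyclin A and cyclin B with CDK1 later drive the passage through G2 and mitosis, with WEE1 holding CDK1 in check by phosphorylation and CDC25 phosphatases removing that phosphate. CDK inhibitors of the INK4 and CIP/KIP families bind the kinases, and a further set of cyclins and CDKs acts on RNA polymerase II or within the Mediator complex, among them CDK7 with cyclin H, which also activates the cell cycle CDKs. CDK4 and CDK6 activity, pocket proteins and the INK4 locus are often altered in carcinomas, to an extent that differs between tissues.

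Many cell cycle genes are read by E2F factors through a short GC-rich octamer, and late cell cycle genes through a CCAAT box and the cell cycle homology region (CHR), so stretches that hold these letters are shown first for members whose values are compared below. They come from the RefSeq promoter table (GRCh38.p14), which covers 250 bases before to 50 after annotated starts and held 38 of the 45 genes. The motifs were searched on both strands as TTTCCCGC, TTTGGCGC, TTTCGCGC and TTTGCCGC (E2F), TTTGAA (CHR) and CCAAT. Matches on opposite strands or of different motifs may overlap by some letters. All stretches are given from 5′ to 3′ on the strand of the gene, with the matched letters in capitals. The stretches of E2F1, CDK1, CCNB1, CCNB2 and CDKN3 overlap annotated exons on the same strand. That of CDK1 lies after the start of its window. The first 6 hold an E2F octamer and the rest a CCAAT box, a CHR or both.
E2F1, chr20:33686395-33686424, minus strand: tctttcGCGGCAAAaaggaTTTGGCGCgta
E2F2, chr1:23531257-23531286, minus strand: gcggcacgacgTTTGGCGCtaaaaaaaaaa
E2F3, chr6:20401815-20401844, plus strand: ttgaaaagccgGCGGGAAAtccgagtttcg
RBL1, chr20:37096000-37096029, minus strand: gcagatTTTCGCGCgcTTTGGCGCaggtgg
CDC25A, chr3:48188443-48188472, minus strand: ggtggattccgTTTGGCGCcaactaggaaa
CDK1, chr10:60778339-60778368, plus strand: tttcctctttcTTTCGCGCtctagccaccc
CCNB1, chr5:69167052-69167081, plus strand: accggcagccgCCAATgggaagggagtgag
CCNB1, chr5:69167084-69167113, plus strand: ccacgaacaggCCAATaaggagggagcagt
CCNB2, chr15:59105081-59105110, plus strand: cgcagggccgcCCAATggggcgcaagcgac
CCNB2, chr15:59105104-59105133, plus strand: aagcgacgcggtaTTTGAAtcctggaacaa
CCNF, chr16:2429334-2429374, plus strand: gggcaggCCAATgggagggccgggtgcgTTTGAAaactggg
CDKN3, chr14:54396915-54396944, plus strand: gcggatctgATTGGttgctggaagacgccg

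An E2F octamer was present for these 6 of the 38 genes (15.8%), against 3.99% of all 27305 symbols in the table. The CHR letters were present for 9 of 38 (23.7%, against 18.2% of all symbols) and CCAAT for 20 of 38 (52.6%, against 39.7%). A gene may have several windows, and the 38 genes had 58, so these shares depend on window number. Per window they were 12.1% against 3.31% for E2F, 19.0% against 15.2% for CHR and 41.4% against 34.6% for CCAAT. By the limma test described below, 2 of the genes with CHR letters rose and 2 fell, and 4 of those with CCAAT rose and 4 fell. Of all tested features 37.1% passed (18.2% higher and 18.9% lower), so these counts are near the background. A match describes the letters of the window and is not shown to be a bound site.

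ARID1A was examined first, as the check of the labels. It read 11.1 and 11.4 FPKM (fragments normalized to the length of the transcript and to the total mapped) in control cells and 7.05 and 6.13 FPKM in knockdown cells, a log2 change of -0.69 (SE 0.0774, limma adjusted p = 0.00438), with p = 0.333 by exact permutation (two-sided), the lowest value possible with 2 libraries a group. Log2 changes are knockdown minus control on log2(FPKM + 1), a scale that understates changes of low genes. Sequencing depth, estimated from the spacing of low FPKM values, was 69250000 to 76000000 fragments, so that 1 FPKM over 2 kb rests on 138.5 to 152.0 fragments before a correction for fragment length. Of 8 colon epithelial markers, 6 were tested. The list summed to 2114 and 2057 FPKM in the controls and 2733 and 2790 FPKM in the knockdown libraries, where KRT8, KRT18 and KRT20 rose and EPCAM fell, and VIL1 and LGALS4 were at most at 0.207 and 0.21 FPKM. The part of these markers in the results below was not tested. The leukocyte, fibroblast and endothelial markers summed to at most 8.12, 6.43 and 0.325 FPKM in any library, and CD3E and TYROBP were listed at 0. Mitochondrially encoded transcripts took 4.29% to 4.35% of summed FPKM in the controls and 5.65% to 6.04% in the knockdown libraries. With FPKM rescaled to a common sum without them, 8 of the members rose and 8 fell (36.4% together, beside 36.1% of all tested features).

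Of the 45 genes, 44 had a mean of at least 1 FPKM over the 4 libraries and were tested. With limma and a Benjamini-Hochberg adjusted p under 0.05 over 13605 features, 9 rose, 9 fell and 26 did not pass. The share that passed, 40.9%, was near the 37.1% of all tested features (18.2% higher and 18.9% lower), so the number of changed genes does not set this family apart. Its median log2 change was 0.04, beside -0.003 over all tested features, and its median absolute change 0.13, beside 0.18. A log2 change of at least 0.5 among genes that passed was reached by 3 members, CDC25B, CDKN3 and CCNE1, and by 10.7% of all tested features. Groups did not overlap for 37 of the 44 (84.1%), as for 72.3% of all tested features. Leaving out any 1 library lowered the share that passed, of all tested features as of the members. The member counts thus rest on every library, as do those of all tested features. Each of the 4 reduced fits leaves 1 library in a group. CDC25B, CCNE1, CDKN3 and CCNI passed in each of these 4 fits. In bulk RNA, a change in the share of cells in a phase and a change in RNA per cell cannot be told apart.

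**Figure D1:**
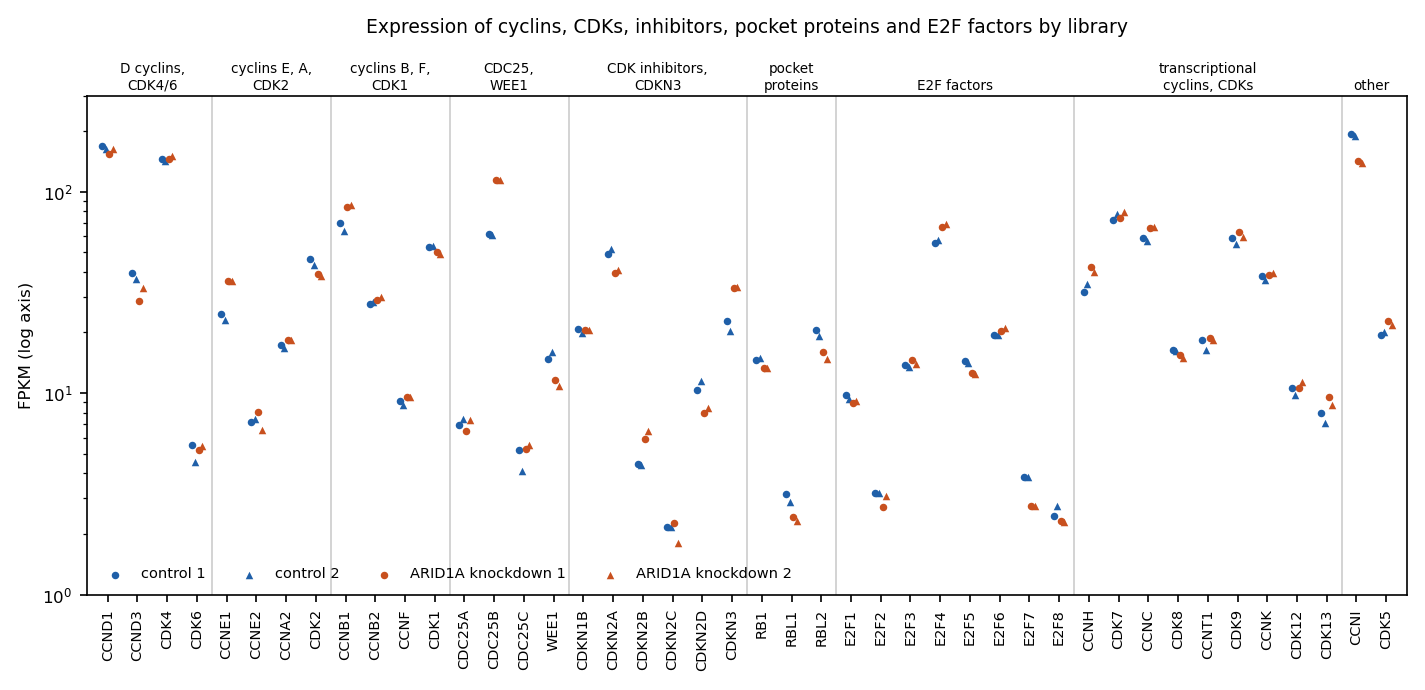
FPKM on a log axis for the 44 tested genes, grouped by role, with each library as a point (blue controls, orange ARID1A knockdown). The control means run from 2.17 FPKM for CDKN2C to 190.7 FPKM for CCNI, and the libraries of the groups stand clearly apart for CDC25B, CCNE1 and CDKN3.

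**Figure D2:**
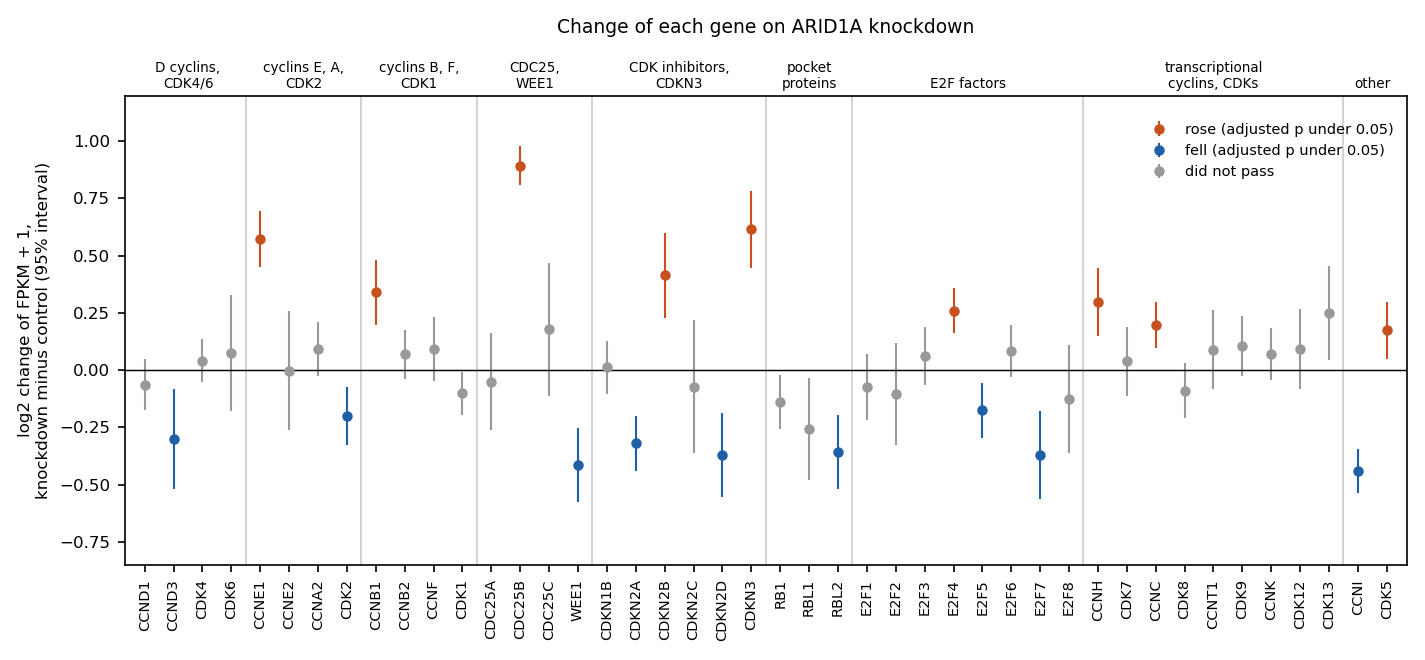
Log2 change of FPKM + 1, knockdown minus control, with its 95% interval from limma, for the 44 tested genes by role. The 9 genes that rose are orange, the 9 that fell are blue and the 26 that did not pass are grey, and each role except the D cyclins, the mitotic cyclins, the pocket proteins and the transcriptional set holds both directions.

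Among the G1 genes, CCND3 fell and the abundant partners CCND1 and CDK4 did not pass. CCND1, the D-type cyclin most associated with mitogen signals in epithelium, was at 168 and 163 FPKM in control cells and 154 and 162 FPKM in knockdown cells. That is a log2 change of -0.06 (SE 0.0423, limma adjusted p = 0.293), with a 95% interval of -0.17 to 0.05. Its groups did not overlap, but the nearest control and knockdown libraries lay close together. CCND3, a second D-type cyclin, was at 39.6 and 36.8 FPKM in control cells and 28.5 and 33.1 FPKM in knockdown cells, 1.24-fold lower in the mean, a log2 change of -0.30 (SE 0.0840, limma adjusted p = 0.0466). All control values of CCND3 lay above both knockdown values, though the knockdown libraries differed from each other. The call of CCND3 was lost on leaving out control replicate 1 (to an adjusted p of 0.196), control replicate 2 (0.116) or knockdown replicate 1 (0.106). CCND2, the third D-type cyclin, did not exceed 0.0234 FPKM in a library and was not tested. The catalytic partners were at 145 and 142 FPKM in controls and 145 and 150.4 FPKM with the knockdown for CDK4 (log2 change 0.04, interval -0.05 to 0.14, limma adjusted p = 0.420). For CDK6 they were 5.51 and 4.56 FPKM in controls and 5.22 and 5.46 FPKM with the knockdown (log2 change 0.08, interval -0.18 to 0.33, limma adjusted p = 0.577). The sign of the CDK4 value turned under quantile normalization. CDK4 was thus the main D-cyclin kinase by level in all libraries, 26.3 to 31.2 times the FPKM of CDK6.

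At the entry into S phase, CCNE1 rose and its kinase CDK2 fell, while CCNE2 and CCNA2 did not pass. CCNE1, which activates CDK2 at the end of G1, lies on chromosome 19 from 29811991 to 29824312 (GRCh38). Its levels were 24.6 and 23.1 FPKM in control cells and 35.9 and 36.1 FPKM in knockdown cells. Both knockdown libraries lay well above both controls and close to each other. The mean went from 23.9 ± 1.05 to 36.0 ± 0.123 FPKM (SD, n = 2), 1.51-fold, with a log2 change of 0.57 (SE 0.0471, limma adjusted p = 0.00209). The call of CCNE1 was kept with any 1 library left out (adjusted p 0.0165 to 0.0253). CCNE2, the paralog with the same partner, was at 7.21 and 7.42 FPKM in controls and 8.07 and 6.60 FPKM with the knockdown, with knockdown values on both sides of the controls and an interval of -0.26 to 0.26 for the log2 change (limma adjusted p = 0.990). CDK2, which both E cyclins activate, was at 46.1 and 43.1 FPKM in control cells and 39.2 and 38.2 FPKM in knockdown cells, a log2 change of -0.20 (SE 0.0488, limma adjusted p = 0.0338). Its groups did not overlap, and the gap between the nearest libraries was little wider than the distance between the controls. The call of CDK2 was lost with any 1 library left out (adjusted p 0.0688 to 0.142). CCNA2, which binds CDK2 in S phase and CDK1 in G2, was at 17.4 and 16.8 FPKM in controls and 18.3 and 18.3 FPKM with the knockdown (limma adjusted p = 0.167).

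Of the mitotic cyclins and their kinase, CCNB1 alone passed, and it rose. It was at 70.1 and 64.1 FPKM in control cells and 84.0 and 86.3 FPKM in knockdown cells, 1.27-fold in the mean, with a log2 change of 0.34 (SE 0.0542, limma adjusted p = 0.0109). Both knockdown values of CCNB1 were above both controls, and the controls were further apart than the knockdown libraries. The call of CCNB1 was lost on leaving out control replicate 2 (to an adjusted p of 0.0541) or knockdown replicate 2 (0.0517). Its paralog CCNB2 was at 27.8 and 28.4 FPKM in controls and 29.05 and 29.99 FPKM with the knockdown, with an interval of -0.04 to 0.18 for the log2 change (limma adjusted p = 0.254). CCNB1 and CCNB2 both carry CCAAT boxes close to their starts, shown above. CDK1, the kinase of mitotic entry, was at 52.8 and 53.5 FPKM in controls and 49.95 and 49.0 FPKM with the knockdown, lower in both knockdown libraries and short of the threshold (limma adjusted p = 0.0862). CCNF, an F-box cyclin of a ubiquitin ligase that does not activate a CDK, was at 9.16 and 8.76 FPKM in controls and 9.61 and 9.61 FPKM with the knockdown (limma adjusted p = 0.238).

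Among the enzymes that set CDK tyrosine phosphorylation, CDC25B rose and WEE1 fell. CDC25B, a phosphatase that starts the activation of CDK1 with cyclin B in G2, lies on chromosome 20 from 3786772 to 3806121. Its levels were 61.3 and 61.0 FPKM in control cells and 115 and 114 FPKM in knockdown cells, and the libraries of a group were nearly level. The mean went from 61.2 ± 0.163 to 114 ± 0.218 FPKM (SD, n = 2), 1.87-fold, with a log2 change of 0.89 (SE 0.0328, limma adjusted p = 0.000363). That was the largest absolute log2 change among the 44 tested members and rank 456 of 13605 tested features, and its call was kept with any 1 library left out (adjusted p 0.00509 to 0.0150). CDC25A, which acts mainly at G1 and S phase, was at 6.94 and 7.43 FPKM in controls and 6.47 and 7.36 FPKM with the knockdown with overlapping groups (interval -0.26 to 0.16, limma adjusted p = 0.656). CDC25C, a mitotic phosphatase, was at 5.24 and 4.13 FPKM in controls and 5.28 and 5.51 FPKM with the knockdown, where the wider spread between the controls leaves an interval of -0.11 to 0.47 (limma adjusted p = 0.269). WEE1, the kinase that opposes them, was at 14.9 and 15.9 FPKM in control cells and 11.7 and 10.9 FPKM in knockdown cells, 1.36-fold lower, with a log2 change of -0.42 (SE 0.0623, limma adjusted p = 0.00924). Both knockdown values of WEE1 were below both controls. The call of WEE1 was lost on leaving out control replicate 2 (to an adjusted p of 0.0625).

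The CDK inhibitors moved in both directions, and CDKN1B did not pass. CDKN1B, which encodes the CIP/KIP inhibitor p27 that restrains cyclin E with CDK2, was at 20.8 and 19.99 FPKM in controls and 20.6 and 20.6 FPKM with the knockdown, with an interval of -0.10 to 0.13 for the log2 change (limma adjusted p = 0.850). Of the INK4 genes, which encode inhibitors of CDK4 and CDK6, CDKN2A and CDKN2D fell, CDKN2B rose and CDKN2C did not pass. CDKN2A, on chromosome 9 from 21967753 to 21995301, encodes p16 and, from another reading frame, ARF. Its levels were 49.2 and 51.9 FPKM in control cells and 39.5 and 41.0 FPKM in knockdown cells, 1.25-fold lower, with a log2 change of -0.32 (SE 0.0464, limma adjusted p = 0.00845). Its call was lost on leaving out control replicate 2 (to an adjusted p of 0.0606). CDKN2B, its neighbour on the same chromosome from 22002903 to 22009305, stood at 4.43 and 4.39 FPKM in control cells and 5.93 and 6.497 FPKM in knockdown cells, 1.41-fold, with a log2 change of 0.41 (SE 0.0713, limma adjusted p = 0.0133). Thus the 2 neighbours, with groups that did not overlap for either, went opposite ways, and CDKN2B remained well below CDKN2A per length in every library. The call of CDKN2B was lost on leaving out control replicate 1 (to an adjusted p of 0.0700), control replicate 2 (0.0735) or knockdown replicate 2 (0.0648).

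The feature AL359922.1, chosen after its values were seen, spans both genes on chromosome 9 from 21802636 to 22029594. Its levels were 30.2 and 29.04 FPKM in control cells and 76.2 and 65.7 FPKM in knockdown cells (log2 change 1.23, limma adjusted p = 0.00117). Reads within the shared stretch may not be told apart without a stated strand setting, and shared exons were not examined. The values of CDKN2A and CDKN2B may thus depend on how the authors' tool divided such reads. The part of AL359922.1 in the changes of both genes was not tested. CDKN2D, on chromosome 19, was at 10.3 and 11.4 FPKM in control cells and 7.93 and 8.41 FPKM in knockdown cells, a log2 change of -0.37 (SE 0.0708, limma adjusted p = 0.0175). Both knockdown values of CDKN2D were below both controls, and its call was lost on leaving out control replicate 2 (to an adjusted p of 0.0847), knockdown replicate 1 (0.0751) or knockdown replicate 2 (0.0564). CDKN2C was at 2.17 and 2.17 FPKM in controls and 2.26 and 1.80 FPKM with the knockdown (limma adjusted p = 0.647), the lowest control mean among the tested members. CDKN3, a phosphatase that removes the activating phosphate of CDKs, is known as a gene of late cell cycle phases and carries an inverted CCAAT box in the stretch shown above. It lies on chromosome 14 from 54396849 to 54420218. Its levels were 22.7 and 20.2 FPKM in control cells and 33.1 and 33.7 FPKM in knockdown cells. The mean went from 21.5 ± 1.76 to 33.4 ± 0.432 FPKM (SD, n = 2), 1.55-fold, with a log2 change of 0.62 (SE 0.0649, limma adjusted p = 0.00382). The gap between the groups was wider than the distance between the controls, and the call of CDKN3 was kept with any 1 library left out (adjusted p 0.0201 to 0.0269).

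The pocket protein genes were lower in every knockdown library than in any control, and RBL2 alone passed. RBL2, which encodes p130, the pocket protein of resting cells, was at 20.6 and 19.3 FPKM in control cells and 16.0 and 14.7 FPKM in knockdown cells, 1.30-fold lower, with a log2 change of -0.36 (SE 0.0624, limma adjusted p = 0.0139). Its call was lost on leaving out control replicate 1 (to an adjusted p of 0.0824), control replicate 2 (0.0583) or knockdown replicate 2 (0.0556). RB1, the retinoblastoma gene, was at 14.7 and 14.9 FPKM in controls and 13.3 and 13.3 FPKM with the knockdown (log2 change -0.14, interval -0.26 to -0.02, limma adjusted p = 0.0672). RBL1, which encodes p107, was at 3.15 and 2.89 FPKM in controls and 2.42 and 2.32 FPKM with the knockdown (log2 change -0.26, interval -0.48 to -0.03, limma adjusted p = 0.0744). Groups that do not overlap were common in these data, at 72.3% of all tested features, so the separation of RB1 and RBL1 alone is not a call. RBL1 passed without a trend of the variance on the mean (adjusted p = 0.037).

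Of the 8 E2F genes, E2F4 rose, E2F5 and E2F7 fell and the other 5, including all 3 activators, did not pass. The share that passed was 37.5%, near the 37.1% of all tested features. E2F4 and E2F5 encode the factors that repress with pocket proteins in resting and early G1 cells. E2F4, the most abundant E2F per length in all 4 libraries, was at 55.8 and 57.2 FPKM in control cells and 66.9 and 68.9 FPKM in knockdown cells, 1.201-fold, with a log2 change of 0.26 (SE 0.0380, limma adjusted p = 0.00862). Both knockdown values of E2F4 were above both controls, and its call was lost on leaving out control replicate 1 (to an adjusted p of 0.0664) or control replicate 2 (0.0550). E2F5 was at 14.4 and 14.1 FPKM in control cells and 12.6 and 12.4 FPKM in knockdown cells, a log2 change of -0.18 (SE 0.0461, limma adjusted p = 0.0400). The difference in E2F5 was small but larger than the spread within either group, and its call was lost with any 1 library left out (adjusted p 0.111 to 0.158). E2F7, an atypical repressor that acts without a DP partner, was at 3.84 and 3.85 FPKM in control cells and 2.75 and 2.74 FPKM in knockdown cells, 1.40-fold lower, with a log2 change of -0.37 (SE 0.0733, limma adjusted p = 0.0192). The replicates of E2F7 nearly coincided, and its call was lost with any 1 library left out (adjusted p 0.0680 to 0.0852).

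E2F8, the other atypical repressor, was at 2.47 and 2.77 FPKM in controls and 2.32 and 2.29 FPKM with the knockdown (limma adjusted p = 0.317), and E2F6, a repressor that does not bind pocket proteins, at 19.5 and 19.3 FPKM in controls and 20.2 and 21.0 FPKM with the knockdown (0.201). The activators E2F1, E2F2 and E2F3 were within narrow ranges. E2F1 was at 9.81 and 9.30 FPKM in controls and 8.94 and 9.11 FPKM with the knockdown (interval -0.22 to 0.07, limma adjusted p = 0.344). E2F2 was at 3.18 and 3.21 FPKM in controls and 2.74 and 3.08 FPKM with the knockdown (interval -0.33 to 0.12, adjusted p = 0.390). E2F3 was at 13.7 and 13.5 FPKM in controls and 14.6 and 14.0 FPKM with the knockdown (interval -0.07 to 0.19, adjusted p = 0.368). Of the 6 members with an E2F octamer in the stretches above, E2F1, E2F2, E2F3, RBL1, CDC25A and CDK1, 0 passed the limma test, where 37.1% of all tested features did. So few genes, found by exact letters, do not show whether members with E2F sites differ from the rest. No promoter window was available for CCND1, CCND2, CCNE2, CDK2, E2F5, E2F8 and WEE1, of which CDK2, E2F5 and WEE1 passed.

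The transcriptional cyclins and CDKs, which phosphorylate RNA polymerase II or belong to Mediator, numbered 9 among the members. CCNH and CCNC rose, 0 fell and 7 did not pass. The share that passed was 22.2%, beside 37.1% of all tested features. CCNH, the cyclin of CDK7 in the CDK-activating kinase and in TFIIH, was at 31.9 and 34.7 FPKM in control cells and 42.2 and 40.1 FPKM in knockdown cells, 1.23-fold, with a log2 change of 0.30 (SE 0.0574, limma adjusted p = 0.0182). The call of CCNH was lost on leaving out control replicate 1 (to an adjusted p of 0.0847) or knockdown replicate 1 (0.0727). Its kinase CDK7 was at 71.9 and 77.5 FPKM in controls and 74.1 and 79.6 FPKM with the knockdown with interleaved libraries (interval -0.11 to 0.19, limma adjusted p = 0.626). CCNC, the cyclin of the Mediator kinase module, was at 59.1 and 56.9 FPKM in control cells and 66.1 and 67.0 FPKM in knockdown cells, 1.15-fold, with a log2 change of 0.20 (SE 0.0384, limma adjusted p = 0.0189). Both knockdown values of CCNC were higher than both controls, and its call was lost with any 1 library left out (adjusted p 0.0544 to 0.107). Its partner CDK8 was at 16.4 and 16.1 FPKM in controls and 15.5 and 14.9 FPKM with the knockdown (limma adjusted p = 0.195).

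The genes of the elongation kinases did not pass. CCNT1 and CDK9, which form P-TEFb, were at 18.4 and 16.4 against 18.7 and 18.4 FPKM and at 58.9 and 55.3 against 63.1 and 59.8 FPKM (controls against knockdown, limma adjusted p = 0.334 and 0.168). CCNK, the cyclin shared by CDK12 and CDK13, was at 38.2 and 36.4 against 38.7 and 39.6 FPKM (adjusted p = 0.263). CDK12 was at 10.7 and 9.82 against 10.6 and 11.4 FPKM (adjusted p = 0.336), and CDK13 at 7.92 and 7.14 against 9.58 and 8.69 FPKM (log2 change 0.25, adjusted p = 0.0655). CDK13 was higher in both knockdown libraries and passed under quantile normalization (adjusted p = 0.0453).

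The remaining members are CCNI, a cyclin with high levels in many tissues and no settled role in the cycle, and CDK5, a kinase known mainly from neurons. CCNI, on chromosome 4 from 77047155 to 77075989, had the highest level per length of any member in both controls, 194 and 188 FPKM, against 142 and 138 FPKM in knockdown cells. The mean went from 191 ± 4.05 to 140.1 ± 2.997 FPKM (SD, n = 2), 1.36-fold lower, with a log2 change of -0.44 (SE 0.0369, limma adjusted p = 0.00215). In both knockdown libraries CCND1 and CDK4 stood above CCNI, the reverse of the order in the controls. The call of CCNI was kept with any 1 library left out (adjusted p 0.0121 to 0.0323). CDK5 was at 19.4 and 20.02 FPKM in controls and 22.9 and 21.8 FPKM with the knockdown, a log2 change of 0.17 (SE 0.0480, limma adjusted p = 0.0457). Its call was lost with any 1 library left out (adjusted p 0.0790 to 0.183), and the CDK5 locus overlaps SLC4A2.

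**Figure D3:**
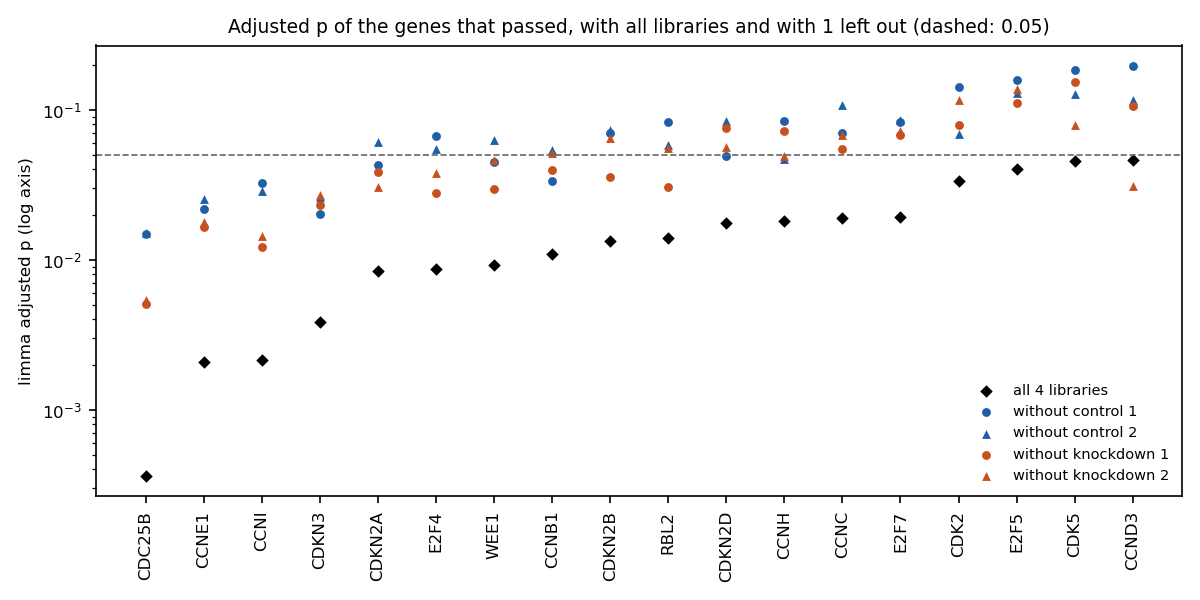
Limma adjusted p on a log axis for the 18 members that passed, with all 4 libraries (black) and with each library left out (blue controls, orange knockdown; dashed line at 0.05). CDC25B, CCNE1, CCNI and CDKN3 stay under the line in all 4 reduced fits, and CDK2, E2F5, E2F7, CCNC and CDK5 are above it in all 4.

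Other settings ended some calls at the lower end. With a filter of at least 0.1 FPKM, CCND3, E2F5 and CDK5 no longer passed (limma adjusted p = 0.0674, 0.0568 and 0.0617). With no filter, which adds many features near 0 and lowers the share called to 9.60%, CCND3, CDK2, CCNB1, CDKN2B, CDKN2D, RBL2, E2F5, E2F7, CCNH and CDK5 did not pass (limma adjusted p 0.0541 to 0.157). Without a trend of the variance on the mean, CCND3, CDK2, E2F5 and CDK5 did not pass (0.0506 to 0.0745). With a common sum without mitochondrial transcripts, E2F5 and CDK5 did not pass (0.0551 and 0.0850), and under quantile normalization CDK5 did not (0.0615). CDC25B, CCNE1, CDKN3, CCNI, WEE1, CDKN2A, E2F4 and CCNC kept their calls under all of these.

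Among the 18 members that passed, 8 have a locus that overlaps another feature with a mean of at least 1 FPKM. Besides CDKN2A, CDKN2B and CDK5, these are CDK2 (PMEL), RBL2 (AKTIP), E2F5 (RBIS), CCNH (RASA1) and CCNC (TSTD3). Overlap was taken over whole loci, introns included, and shared exons were not examined. Where exons are shared, reads may not be told apart without a stated strand setting. RBIS was higher in the knockdown libraries, at 107 and 109.6 FPKM against 125 and 122 FPKM (limma adjusted p = 0.0173), while E2F5 fell. SLC4A2 moved the same way as CDK5, at 51.6 and 54.1 FPKM against 61.5 and 58.7 FPKM (adjusted p = 0.0356). PMEL, AKTIP, RASA1 and TSTD3 did not pass (adjusted p = 0.875, 0.999, 0.597 and 0.999). CDC25B, CCNE1, CDKN3, CCNI, WEE1, CCNB1 and E2F4 have no such overlap.

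Ratios within a library compare genes per length and do not depend on its scaling. For 8 of 10 pairs chosen by function or paralogy, the ratios of the groups did not overlap, with p = 0.333 by exact permutation (two-sided) for each, again the lowest value possible (0.416 after adjustment over the 10 pairs). Single features did not overlap in 72.3% of cases and the share among other pairs was not computed, so this count does not set the pairs apart. CCNE1 was 3.42 and 3.12 times CCNE2 in control cells and 4.45 and 5.47 times in knockdown cells, a change of 0.60 in the mean log2 ratio. Against CDKN1B, the inhibitor of its kinase, CCNE1 was 1.18 and 1.16 times in control cells and 1.75 and 1.75 times in knockdown cells. The replicates of this ratio nearly coincided in each group, and its change was 0.58 in log2. WEE1 stood at 2.84 and 3.86 times CDC25C in control cells and at 2.21 and 1.98 times in knockdown cells (-0.66 in log2), with controls far apart. The phosphatases CDC25A and CDC25B were at a ratio of 0.113 and 0.122 in control cells and 0.0564 and 0.0644 in knockdown cells (-0.96 in log2).

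The other separated pairs moved less. CCNB1 was 2.52 and 2.26 times CCNB2 in control cells and 2.89 and 2.88 times in knockdown cells. CCND1 was 4.25 and 4.43 times CCND3 in control cells and 5.41 and 4.90 times in knockdown cells. E2F1 was at 0.176 and 0.162 of E2F4 in control cells and 0.134 and 0.132 in knockdown cells. These ratios use the same FPKM values as the single genes. Their shifts toward a gene that rose or away from a gene that fell are thus no separate support. CDKN2C to CDKN2D separated narrowly (0.211 and 0.190 against 0.285 and 0.214). The ratios of CDK4 to CDK6 and of RBL1 to RBL2 (0.153 and 0.1499 against 0.151 and 0.158) overlapped between the groups.

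**Figure D4:**
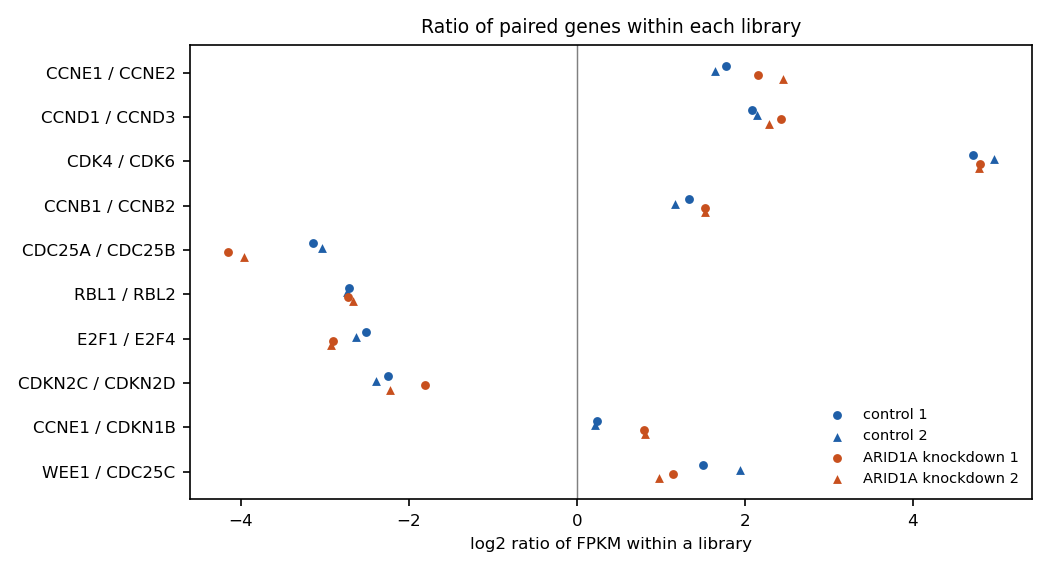
Log2 ratio of FPKM within each library for 10 pairs of members (blue controls, orange ARID1A knockdown). The groups are apart for 8 pairs, with the widest shift for CDC25A to CDC25B (-0.96), and overlap for CDK4 to CDK6 and RBL1 to RBL2.

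Other genes of the pathway were read in 5 lists taken from their known roles. Of 32 other cyclins, CDKs, inhibitors and assembly factors, 30 were tested, 7 rose and 6 fell (43.3% together, beside 37.1% of all features). The median log2 change was -0.02, and with any 1 library left out 1 to 4 rose and 1 to 5 fell. CCNJL, a little-studied cyclin-like gene, was at 5.65 and 5.54 FPKM in control cells and 2.70 and 2.58 FPKM in knockdown cells (log2 change -0.86, limma adjusted p = 0.00209). CDKN1A, which encodes the CIP/KIP inhibitor p21, was at 147 and 147 FPKM in controls and 197 and 198 FPKM with the knockdown (log2 change 0.42, limma adjusted p = 0.00163). It was far more abundant per length than CDKN1B and rose where CDKN1B did not pass. CCNYL1 was at 6.81 and 6.29 FPKM in controls and 8.73 and 9.34 FPKM with the knockdown (log2 change 0.41, limma adjusted p = 0.0123), a call lost on leaving out control replicate 1 (to an adjusted p of 0.0503), control replicate 2 (0.0710) or knockdown replicate 2 (0.0649).

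Of 10 partners of E2F and members of the MuvB or DREAM complex, which holds cell cycle genes off in resting cells, 1 rose and 2 fell (30% together, beside 37.1% of all features), with a median log2 change of -0.09. With 1 library left out, 0 rose and 0 or 1 fell. TFDP1, the main dimer partner of E2F factors, was at 83.5 and 87.6 FPKM in control cells and 97.7 and 99.4 FPKM in knockdown cells (limma adjusted p = 0.0191), a call lost with any 1 library left out (adjusted p 0.0529 to 0.106). MYBL2, which turns MuvB into an activator, was at 22.6 and 22.5 FPKM in controls and 18.6 and 19.0 FPKM with the knockdown (limma adjusted p = 0.0125), a call lost on leaving out control replicate 1 (to an adjusted p of 0.0752), control replicate 2 (0.0759) or knockdown replicate 1 (0.0532). LIN54, the DNA-binding subunit of MuvB that reads the CHR, was at 5.68 and 6.04 FPKM in controls and 4.61 and 4.57 FPKM with the knockdown (limma adjusted p = 0.0265), a call lost with any 1 library left out (adjusted p 0.0789 to 0.119).

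Of 18 genes for the ubiquitin ligases that degrade cyclins, CDKN1B and E2F1, 5 rose and 2 fell (38.9% together, near the 37.1% of all features). The median log2 change was 0.07, and 1 to 3 rose and 1 to 2 fell with 1 library left out. FBXW7, the F-box protein that marks cyclin E for degradation, was at 4.44 and 4.70 FPKM in control cells and 7.66 and 6.37 FPKM in knockdown cells (log2 change 0.52, limma adjusted p = 0.0168), a call lost on leaving out control replicate 1 (to an adjusted p of 0.0922), control replicate 2 (0.0762) or knockdown replicate 1 (0.0517). So the transcripts of CCNE1 and FBXW7 were both higher in both knockdown libraries. CDC20, the mitotic activator of the anaphase-promoting complex, was at 46.2 and 44.3 FPKM in controls and 64.2 and 66.6 FPKM with the knockdown (log2 change 0.52, limma adjusted p = 0.00208), and FBXO5, an inhibitor of that complex, at 18.9 and 19.5 FPKM in controls and 15.7 and 14.6 FPKM with the knockdown (log2 change -0.32, adjusted p = 0.0129). The call of FBXO5 was lost on leaving out control replicate 1 (to an adjusted p of 0.0659), control replicate 2 (0.0816) or knockdown replicate 2 (0.0525).

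The 30 E2F target genes of G1 and S phase and the 28 target genes of G2 and mitosis had medians of opposite sign. Both medians lay between the 25 and 75 percentiles of all tested features (-0.20 and 0.17). In the first list 46.7% passed, beside 37.1% of all tested features. Of the first, 12 fell and 2 rose, with a median log2 change of -0.14 (0 to 2 rose and 2 to 7 fell with 1 library left out). CDT1, a licensing factor of replication origins, was at 40.3 and 37.6 FPKM in control cells and 27.0 and 29.5 FPKM in knockdown cells (log2 change -0.45, limma adjusted p = 0.00784), a call lost on leaving out control replicate 1 (to an adjusted p of 0.0575). POLA1, the catalytic subunit of DNA polymerase alpha, was at 5.98 and 5.99 FPKM in controls and 4.55 and 4.26 FPKM with the knockdown (limma adjusted p = 0.0149), a call lost on leaving out control replicate 1 (to an adjusted p of 0.0769), control replicate 2 (0.0787) or knockdown replicate 2 (0.0705). DTL, of a ligase that degrades CDT1, was at 8.47 and 9.33 FPKM in controls and 7.02 and 6.42 FPKM with the knockdown (limma adjusted p = 0.0230), a call lost with any 1 library left out (adjusted p 0.0520 to 0.109). The 2 that rose, FEN1 and PCNA, were named after their values were seen (log2 change 0.34 and 0.16, limma adjusted p = 0.0103 and 0.0406).

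Of the 28 target genes of G2 and mitosis, 6 rose and 2 fell, with a median log2 change of 0.07 (3 to 4 rose and 1 to 2 fell with 1 library left out). PTTG1, which encodes securin, was at 62.4 and 62.3 FPKM in control cells and 99.1 and 94.9 FPKM in knockdown cells (log2 change 0.63, limma adjusted p = 0.00108). The kinesin gene KIF20A was at 7.79 and 7.82 FPKM in controls and 11.8 and 11.6 FPKM with the knockdown (log2 change 0.53, limma adjusted p = 0.00287), and CDC20 belongs to this list as well. These 3 kept their calls with any 1 library left out. The 2 that fell, UBE2C and PRC1, were named after their values were seen (log2 change -0.28 and -0.20, limma adjusted p = 0.00481 and 0.0244). The share that passed was 46.7% in the first list and 28.6% in the second. Of all tested features 37.1% passed (18.2% higher and 18.9% lower). The difference between the lists was not tested.

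**Figure D5:**
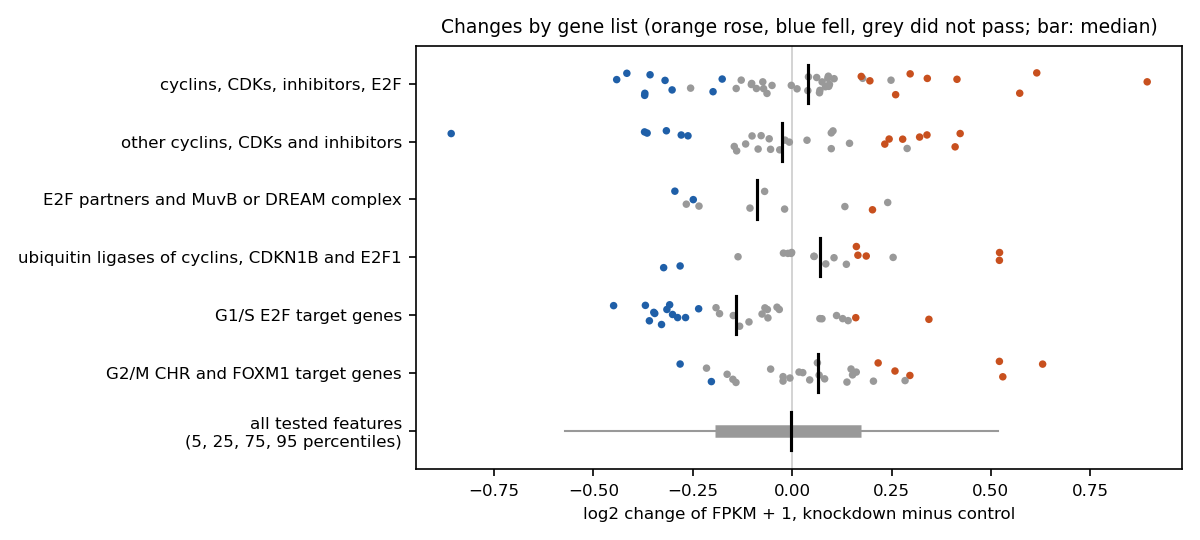
Log2 change of each tested gene of the family and of the 5 pathway lists (points; orange rose, blue fell, grey did not pass), with the median of each list as a black bar. The lowest row gives the median of all 13605 tested features, with a thick bar from -0.20 to 0.17 (25 and 75 percentiles) and a thin line from -0.57 to 0.52 (5 and 95 percentiles), and the median of the G1 and S phase targets (-0.14) lies left of zero.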

How the data were processed

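Libraries of 2 control and 2 ARID1A knockdown samples of HCT116 were prepared from total RNA with a NEBNext Ultra kit, per the labels' protocols. For each library the authors deposited FPKM values per gene, per the file headers. STAR, Cufflinks and GRCh38 are named in the submitters' processing notes, and the sources used here do not give versions, annotation or strand setting.

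Each table held 60811 rows of symbol and locus. From these, 45 second copies of pseudoautosomal genes were dropped, and 2347 values under 1e-09 were set to 0. Loci are printed with 1 added to the start. FPKM is not a count, so limma 3.58.1 under R 4.3.3 (eBayes with a trend) was run on log2(FPKM + 1) for features with a mean of at least 1 FPKM. Benjamini-Hochberg adjustment ran over all 13605 tested features at a threshold of 0.05. The fit was tested on simulated data, in which far fewer genes changed than were called here. It recovered 2.8% of log2 changes of 0.25, 34.4% of 0.5, 73.2% of 1 and 91.6% of 2. These rates need not hold for the members. Depth came from genes with 1 transcript of at least 1500 bases in GENCODE 29. Of their values at or below 8 fragments, 78.0% to 80.6% lay within 0.1 of a whole number, where an even spread gives 20%. Between replicates, chi-square per gene was 3.80 (control) and 4.48 (knockdown), above sampling noise.

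The members and lists were chosen with earlier results of these data known. All members were reported, and up to 3 called genes of each pathway list, those with the largest absolute log2 change. Alternatives covered pseudocount, filter, scaling, variance trend, replicate block and leaving out each library.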

Additional observations from a re-analysis of the deposited data

How the results depend on the processing

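Over 13 alternatives, the 44 tested members gave 567 values, of which 490 kept their direction and side of the threshold, 63 lost a call, 3 gained one and 11 changed sign. No called member changed direction under any of the 13 (0 of 18). Without a filter on low values, 2786 features were called, 1373 higher and 1413 lower (9.6% of those tested). Of the members, 5 were higher and 3 lower (17.8%), with many features near 0 added to the background. With 1 library left out, calls ranged from 1900 to 3259 (954 to 1678 higher, 922 to 1598 lower), with 4 to 6 members higher and 1 to 4 lower, and the lone library of an arm is then assumed to vary like the other group. With the filter at 5 FPKM, 39 members were tested and 17 called.

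The signs that turned all belong to genes that did not pass. Under quantile normalization the log2 change of CDK4 was -0.0136 and that of CCNE2 0.0343, and with median centring that of CCNE2 was 0.00818. With 1 library left out, the values ranged as follows, changing sign without the library named. CDK6 ranged from -0.0384 to 0.189 (control replicate 2), CCNE2 from -0.130 to 0.126 (control replicate 2, 0.0161, and knockdown replicate 2) and CDC25A from -0.132 to 0.0308 (knockdown replicate 1). CDKN1B ranged from -0.0153 to 0.0399 (control replicate 2), CDKN2C from -0.182 to 0.0380 (knockdown replicate 2) and CDK7 from -0.0138 to 0.0926 (control replicate 1 and, at -0.0116, knockdown replicate 2). The cause was not tested.

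Replicate numbers are not shown to pair these libraries, as the deviations of same-numbered libraries correlated at -0.0099 across genes. With the number as a replicate block, 4126 features were called (30.3% of those tested), with 9 members higher and 7 lower (36.4% of those tested). CCND3, E2F5 and CDK5 no longer passed (adjusted p = 0.0745, 0.0772 and 0.0859), and CDK13 passed (0.049). Under the block, 2 ubiquitin ligase genes rose in place of 5, 1 gene of the E2F partners and MuvB fell in place of 2, and 1 target gene of G1 and S phase rose in place of 2.

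CCND2 was left out by the filter at 1 FPKM. For the other members, 2 libraries a group leave 2 residual degrees of freedom, so members that did not pass are not shown to be level. Bulk FPKM gives no cell cycle phases, protein or kinase activity.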

Other observations

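Members that did not pass overlap 9 other features with a mean of at least 1 FPKM, of which 4 passed the limma test, 2 higher and 2 lower. LTO1, MARCHF9, EXOSC9, PCNPP5 and CCDC85C did not pass (adjusted p 0.109 to 0.878). The 4 that passed were chosen after their values were seen. Both ends of CCNE2, whose own libraries interleaved, overlap other genes. INTS8, a subunit gene of the Integrator complex, was at 50.8 and 51.9 FPKM in control cells and 68.1 and 75.6 FPKM in knockdown cells (log2 change 0.48, limma adjusted p = 0.00580). NDUFAF6, an assembly factor gene of respiratory complex I at the other end, was at 13.6 and 15.3 FPKM in controls and 10.6 and 10.1 FPKM with the knockdown (log2 change -0.44, limma adjusted p = 0.0119). TSPAN31, a tetraspanin gene that overlaps CDK4, was at 22.4 and 23.7 FPKM in controls and 15.3 and 16.8 FPKM with the knockdown (log2 change -0.50, limma adjusted p = 0.00608), while CDK4 did not pass. FAM53C, which overlaps CDC25C, was at 18.3 and 17.1 FPKM in controls and 22.1 and 21.0 FPKM with the knockdown (log2 change 0.27, limma adjusted p = 0.0219).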
